A study of Mus musculus with 4 samples.

Results

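Semaphorins, ephrins, Slits and netrins and their receptors were examined in MC38, a colon carcinoma line of the mouse, using 2 RNA sequencing libraries labelled WT and 2 labelled Arid5a knockout (KO). The genes were chosen by symbol: all semaphorins (Sema), plexins (Plxn), the neuropilins Nrp1 and Nrp2, ephrins (Efn), Eph receptors, Slits, Robos and netrins (Ntn), together with the netrin receptors Unc5b and Dcc. This gave 67 of 24346 symbols. Among them, Plxna4os1 is an antisense transcript and no plexin, and it was at 0 in all libraries. No expression value entered the rule, but the set was proposed with the differences between these same libraries known. The counts, changes and p-values of the members are therefore a description and no independent support for a difference of these families.

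The WT libraries came from MC38 cells and the KO libraries from cells labelled as deficient in Arid5a, with no other agent, allele or time given. The labels do not say whether the KO cells were 1 clone, nor whether the libraries of a group came from separate cultures. The p-values therefore rest only on the spread between these libraries, with each gene's variance drawn toward a trend over all genes tested. That spread may be technical. Arid5a, the targeted gene, was at 0.225 and 0.124 FPKM (fragments scaled to transcript length and library depth) in the WT-labelled libraries and at 2.16 and 1.77 FPKM in the KO-labelled ones. It was thus higher, not lower, where the labels place the knockout, and each direction given here refers to the labels and not to a loss of Arid5a. An exchange of the labels would turn every direction; whether they were exchanged was not tested. Estimated depth was 10300000 to 15400000 fragments per library. Of 12 markers of intestinal epithelium, 0 reached a mean of 1 FPKM, and Epcam, Cdx1, Cdx2 and Cldn7 were at 0 in all libraries. All 9 mesenchymal markers reached a mean of 1 FPKM. Col1a1 did so only through the KO-labelled libraries (2.14 and 1.95 FPKM, against 0.275 and 0.246 FPKM under the WT label). In bulk RNA, fewer cells of a type and less RNA per cell cannot be told apart.

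Guidance cues are secreted or membrane-bound proteins first studied for steering growing axons, and many tissues and tumours use them to direct cell movement, vessel growth and contacts between cells. Semaphorins signal through plexins, and most secreted class 3 semaphorins need a neuropilin as co-receptor. Ephrins and Eph receptor tyrosine kinases sit on facing cells and signal in both directions, Slits bind Robo receptors, and netrins bind DCC, neogenin and the UNC5 receptors. Plexins act on small GTPases and on the actin cytoskeleton.

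The start regions of 4 members are shown because these 4 genes, each at or above 8.69 FPKM in every library, were less abundant under the KO label and stand for 4 of the ligand or receptor groups. Each sequence, from RefSeq on GRCm38.p6, is the stretch before the RefSeq start, 5′ to 3′, and overlaps no annotated exon of its gene. The Sema3a stretch lies inside the gene as GENCODE annotates it, from 13125414 to 13602565 on chromosome 5. Capitals mark matches of the GC box letters GGGCGG or the TATA box letters TATAAA on either strand. Sema3a lies at chr5:13396534-13396783 on the plus strand, Epha2 at chr4:141300971-141301220 on the plus strand, Slit2 at chr5:47982905-47983137 on the plus strand and Unc5b at chr10:60831582-60831831 on the minus strand.
Sema3a: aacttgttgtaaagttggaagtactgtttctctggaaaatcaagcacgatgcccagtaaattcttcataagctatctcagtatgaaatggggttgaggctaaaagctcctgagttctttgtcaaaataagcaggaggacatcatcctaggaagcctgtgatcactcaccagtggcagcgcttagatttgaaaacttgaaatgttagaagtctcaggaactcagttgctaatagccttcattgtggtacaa
Epha2: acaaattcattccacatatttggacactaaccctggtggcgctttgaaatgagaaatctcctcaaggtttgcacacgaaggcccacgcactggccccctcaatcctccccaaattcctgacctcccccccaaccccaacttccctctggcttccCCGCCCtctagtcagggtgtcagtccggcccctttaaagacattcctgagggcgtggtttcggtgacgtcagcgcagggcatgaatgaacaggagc
Slit2: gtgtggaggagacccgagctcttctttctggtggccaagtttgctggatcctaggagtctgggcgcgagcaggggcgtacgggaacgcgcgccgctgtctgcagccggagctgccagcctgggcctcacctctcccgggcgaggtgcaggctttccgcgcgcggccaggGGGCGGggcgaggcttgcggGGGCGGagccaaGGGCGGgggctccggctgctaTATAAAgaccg
Unc5b: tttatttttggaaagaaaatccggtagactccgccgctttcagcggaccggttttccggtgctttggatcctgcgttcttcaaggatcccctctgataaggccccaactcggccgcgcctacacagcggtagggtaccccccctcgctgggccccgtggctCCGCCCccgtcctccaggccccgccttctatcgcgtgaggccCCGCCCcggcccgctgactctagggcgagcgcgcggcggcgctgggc

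These 4 windows differed in base composition although the 4 genes moved in the same direction. Over 300 bases around the start (250 before and 50 after it), Sema3a held 2 CpG dinucleotides and 41.3% G or C, Epha2 held 10 and 54.7%, Slit2 held 30 and 68.0%, and Unc5b held 36 and 69.7%. The GC box letters occurred 0, 1, 3 and 3 times in that order, and the TATA box letters 1 time, in Slit2. Among members with such a window and an average of 1 FPKM or more, 22 of 27 held a GC box match. This compares with 42 of all 57 members with a window and 48.4% of 16527 promoter windows of the same length. Those 16527 windows were not filtered by expression. The median CpG count was 22 in these 27 members, 17.5 in the other 30 and 14 in all windows. The letters ACGTG (core of the hypoxia response element) were found in 4 of these 27 members against 21.1% of all windows. The STAT letters TTCNNNGAA were found in 1 (7.76% of all windows), the AP-1 letters TGANTCA in 1 (6.96%) and TATAAA in 1 (12.9%). Matches on both strands were counted, overlaps between motifs were allowed, and a match is a description of letters only. The expression values do not show which start was used, and GENCODE annotates further starts of Sema3a outside this window.

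Of the 67 members, 30 averaged 1 FPKM or more across the 4 libraries and entered the test, 32 were below this level and 5 were at 0 in all libraries. Among the 30, 15 were lower and 2 higher in the KO-labelled libraries (limma on log2(FPKM + 1), Benjamini-Hochberg adjusted p under 0.05 over all genes tested). Of all 10827 genes tested, 23.3% were lower and 24.4% higher, and 6.15% were lower and 5.61% higher by at least 0.5 on the log2 scale, against 10 and 0 of the members. The median log2 change was -0.20 over the 30 members and 0.01 over all genes. Both libraries labelled KO lay below both labelled WT for 21 members and above both for 7, where these shares were 38.2% and 39.4% over all genes. The members whose groups overlapped were Efna4 and Sema4c. Ntn5 and Sema7a had a group mean above 1 FPKM only in the WT-labelled libraries and so could pass the filter only by being high there; without them 13 were lower and 2 higher among 28, and 8 were lower by at least 0.5. With all libraries scaled to 1 common FPKM total, 16 members were lower and 1 higher, and among all genes the share of higher among called genes moved from 51.2% to 37.3%.

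**Figure D1:**
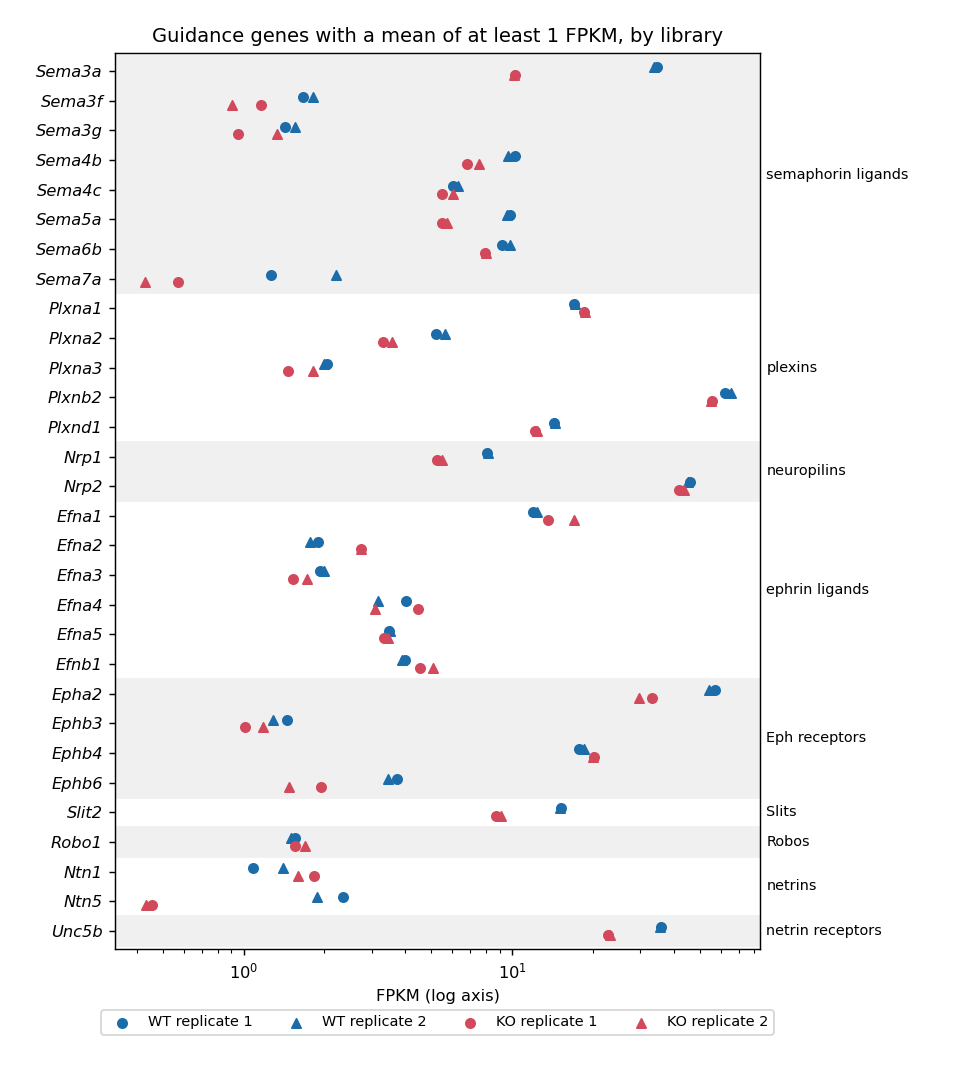
FPKM on a log axis of the 30 guidance genes that averaged 1 FPKM or more, each point 1 library (blue WT, red KO, circle replicate 1, triangle replicate 2), grouped by role. Sema3a, Epha2, Slit2 and Unc5b show red points well to the left of blue ones, whereas the points of Efna4 and Sema4c interleave.

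The highest members were receptors. Plxnb2 led with a mean of 59.6 FPKM, followed by Nrp2 (44.2 FPKM), Epha2 (43.6 FPKM) and Unc5b (29.4 FPKM), and the ligand Sema3a came next (22.3 FPKM). These are levels per transcript length. Plxnb2 stood above Nrp2 in every library, but Nrp2 ranged from 41.9 to 46.1 FPKM and Epha2 from 29.8 to 57.2 FPKM, so their order depended on the group. Ephb4 (19.2 FPKM) and Plxna1 (17.8 FPKM) followed, with ranges of 17.7 to 20.2 and 17.0 to 18.7 FPKM that overlapped.

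Among the ligand groups, semaphorins had the largest ratio of summed levels between the labels. Their summed level was 79.6 and 80.4 FPKM in the WT-labelled libraries and 41.7 and 42.9 FPKM in the KO-labelled ones, a ratio of 1.89. Sema3a, a secreted repellent that acts through Nrp1 and A-type plexins, was at 34.8 and 33.9 FPKM against 10.3 and 10.2 FPKM. The replicates of each group lay close together and far from the other group, and the shift was -1.65 ± 0.042 in log2 (SE; limma, adjusted p = 4.52e-05). The gene (ENSMUSG00000028883.17) spans 13125414 to 13602565 on chromosome 5 (GRCm38). Sema3a accounted for 63.8% of the difference between the summed levels, and its share of all semaphorin FPKM went from 43.7% and 42.1% to 24.6% and 23.9%. The other 19 semaphorins together still differed, with 44.9 and 46.5 FPKM against 31.4 and 32.7 FPKM.

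Sema5a, a transmembrane semaphorin with thrombospondin repeats (chromosome 15, 32244810 to 32696341), was at 9.86 and 9.60 FPKM against 5.49 and 5.74 FPKM (-0.70 ± 0.06 in log2, SE; limma, adjusted p = 9.51e-04). Sema7a, the GPI-anchored member that binds plexin C1 and integrins (chromosome 9, 57940112 to 57962865), was at 1.27 and 2.21 FPKM against 0.570 and 0.428 FPKM. Its replicates spread widely in the WT-labelled libraries, the change was -0.85 ± 0.19 (SE; limma, adjusted p = 0.0172), and the call was lost without KO replicate 2 (adjusted p = 0.0661). At these levels Sema7a rested on about 60 and 80 fragments in the WT-labelled libraries and 18 and 15 in the KO-labelled ones.

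Sema4b, a transmembrane class 4 semaphorin, was at 10.3 and 9.65 FPKM against 6.78 and 7.56 FPKM (-0.43 ± 0.074, SE; limma, adjusted p = 0.00774), and was not called in the absence of WT replicate 1 (adjusted p = 0.0534). Sema6b, a transmembrane ligand of A-type plexins, was at 9.14 and 9.86 FPKM against 7.93 and 8.01 FPKM, a change of -0.23 (limma, adjusted p = 0.0321) that was not called when any 1 of the 4 libraries was left out, nor without the filter (adjusted p = 0.0597). Sema3f, a secreted ligand of Nrp2, fell by 0.43 on the log2 scale (adjusted p = 0.0278), and this call was lost when either WT library or KO replicate 2 was left out. The log2 changes of Sema3g (-0.22) and Sema4c (-0.09) were not called. All 8 tested semaphorins thus had a negative log2 change, as did 5350 of all 10827 genes tested. Of the 8, 6 were called lower (75.0%, beside 23.3% of all genes tested). The 6 include Sema7a, with group means of 1.74 FPKM (WT) and 0.499 FPKM (KO). It could pass the filter only by being high under the WT label, so the share is a description.

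Plexins, the semaphorin receptors, had a ratio of summed levels of 1.12, against 1.89 for semaphorins; the difference between these ratios was not tested. Their summed level was 102 and 105 FPKM in the WT-labelled libraries and 92.0 and 92.6 FPKM in the KO-labelled ones. Plxnb2, a receptor of class 4 semaphorins, was the highest of all members at 62.2 and 65.3 FPKM against 55.7 and 55.2 FPKM, and held 59.6% to 62.1% of plexin FPKM in every library. The shift was -0.20 ± 0.037 in log2 (SE; limma, adjusted p = 0.0101), and its call was lost without WT replicate 2 (adjusted p = 0.0569). Plxna2, a partner of neuropilins for class 3 semaphorins and a receptor of class 6 ones (chromosome 1, 194618218 to 194816869), was at 5.23 and 5.64 FPKM against 3.30 and 3.58 FPKM. This change of -0.53 ± 0.079 (SE; limma, adjusted p = 0.00467) was the largest among the tested plexins. Plxnd1, which binds Sema3e directly, fell by 0.21 (adjusted p = 0.0171) and was not called when any 1 library was left out. Plxna1 was at 17.0 and 17.1 FPKM against 18.6 and 18.7 FPKM and Plxna3 had a log2 change of -0.20, and neither passed the test. Plxna1 was called higher with quantile normalization and with a filter of 5 FPKM. Within the A type, Plxna2 was thus lower, while Plxna1 had a log2 change of 0.12 (limma, adjusted p = 0.0608).

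The neuropilins, co-receptors of class 3 semaphorins and of vascular endothelial growth factors, were both expressed. Nrp1 (chromosome 8, 128358604 to 128503363) was at 8.04 and 8.17 FPKM against 5.26 and 5.49 FPKM (-0.52 ± 0.061 in log2, SE; limma, adjusted p = 0.0024). Nrp2 was at 46.1 and 45.4 FPKM against 41.9 and 43.6 FPKM, a change of -0.10 ± 0.037 (SE) that missed the threshold (adjusted p = 0.0841). It was called lower when all libraries were scaled to 1 common FPKM total. Within a library, Nrp2 exceeded Nrp1 by 5.74 and 5.55 times in the WT-labelled libraries and by 7.97 and 7.95 times in the KO-labelled ones.

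**Figure D2:**
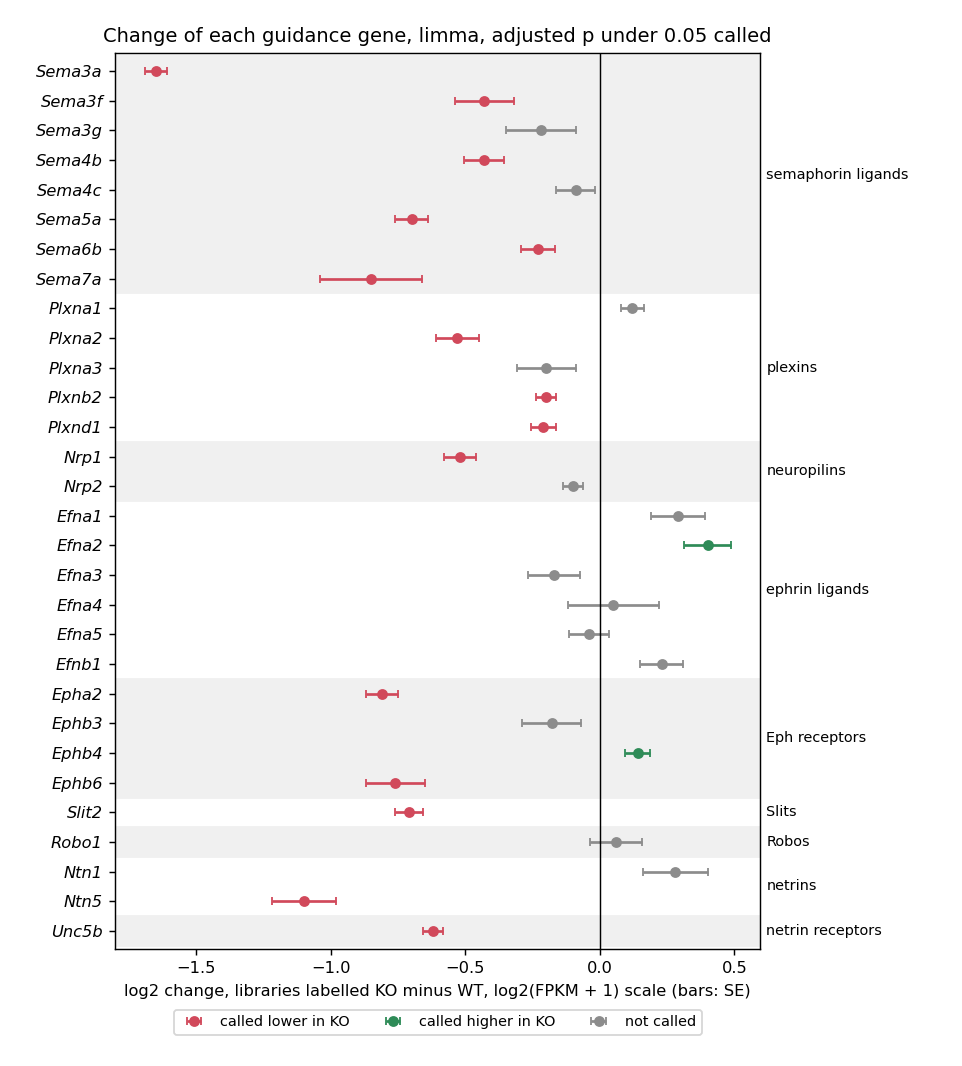
Log2 change of each of the 30 guidance genes on the log2(FPKM + 1) scale, libraries labelled KO minus WT, coloured by the limma call. Bars are the SE from limma, with variances moderated over all genes tested and 2 libraries a group. All 8 semaphorins lie left of 0, and Sema3a is farthest left at -1.65, whereas Efna2 (0.40) and Ephb4 (0.14) are the 2 genes called higher. The scale understates changes of low genes. The ratio of WT to KO means was 4.77 for Ntn5 and 3.49 for Sema7a, against 3.35 for Sema3a.

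Summed levels were higher for ephrins and lower for their receptors under the KO label. The summed ephrin level was 28.4 and 27.9 FPKM in the WT-labelled libraries and 30.9 and 33.9 FPKM in the KO-labelled ones, while the summed Eph receptor level was 81.9 and 79.2 FPKM against 57.7 and 53.9 FPKM. Efna1, the GPI-anchored ephrin that binds EphA2, was the highest ephrin at 12 and 12.4 FPKM against 13.6 and 17.0 FPKM. It accounted for 73.4% of the difference between the summed ephrin levels. Its groups did not overlap, but the libraries labelled KO differed from each other, and the change of 0.29 ± 0.10 (SE; limma, adjusted p = 0.0645) was not called. Efna2 was at 1.89 and 1.77 FPKM against 2.73 and 2.73 FPKM and rose by 0.40 ± 0.086 (SE; limma, adjusted p = 0.0156), a call lost without WT replicate 2 (adjusted p = 0.068). Efnb1, a transmembrane ephrin encoded on the X chromosome, was at 3.99 and 3.88 FPKM against 4.53 and 5.06 FPKM (0.23 ± 0.08, SE; limma, adjusted p = 0.0621). Efna3, Efna4 and Efna5 had log2 changes of -0.17, 0.05 and -0.04 and were not called, and that of Efna4 turned negative under 3 of the alternatives. Of 6 ephrins tested, 1 was thus called higher (16.7%) and 0 lower, beside 24.4% and 23.3% of all genes tested.

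Epha2, a receptor tyrosine kinase often abundant in carcinoma cells (chromosome 4, 141301240 to 141329384), was at 57.2 and 54.4 FPKM against 33.2 and 29.8 FPKM. The groups were far apart relative to their spread, by -0.81 ± 0.061 in log2 (SE; limma, adjusted p = 6.51e-04). Epha2 accounted for 98.3% of the difference in summed Eph level: the other 13 Eph genes together were at 24.7 and 24.8 FPKM against 24.6 and 24.1 FPKM. Members within that remainder differed in direction. Ephb4, the receptor of ephrin-B2 (chromosome 5, 137350109 to 137378669), was at 17.7 and 18.6 FPKM against 20.2 and 20.1 FPKM and rose by 0.14 ± 0.045 (SE; limma, adjusted p = 0.0481). That call was at the edge of the threshold and was lost in 9 of 14 alternatives, the omission of any 1 library among them (adjusted p from 0.0363 to 0.213 over all alternatives). Ephb6, a family member whose kinase domain lacks catalytic activity (chromosome 6, 41605482 to 41620509), was at 3.72 and 3.44 FPKM against 1.94 and 1.48 FPKM, a change of -0.76 ± 0.11 (SE; limma, adjusted p = 0.00499). The log2 change of Ephb3 (-0.18) was not called.

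Among Slits and Robos, the only members above 1 FPKM were Slit2 and Robo1. Slit2, a secreted ligand that repels migrating cells (chromosome 5, 47983138 to 48307733), was at 15.2 and 15.1 FPKM against 8.69 and 9.08 FPKM. The shift was -0.71 ± 0.052 in log2 (SE; limma, adjusted p = 5.95e-04), and it held at least 99.8% of Slit FPKM in every library. Robo1, its receptor, was at 1.55 and 1.5 FPKM against 1.56 and 1.70 FPKM, with a change of 0.06 ± 0.096 (SE) that was not called (limma, adjusted p = 0.635). The ligand thus stood at 9.83 and 10 times its receptor in the WT-labelled libraries and at 5.58 and 5.34 times in the KO-labelled ones.

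Netrin receptors were far more abundant than netrins. Unc5b, a netrin receptor with a death domain in its intracellular part (minus strand of chromosome 10, 60762593 to 60831581), was at 36.0 and 35.7 FPKM against 22.7 and 23.2 FPKM (-0.62 ± 0.037 in log2, SE; limma, adjusted p = 3.54e-04). Dcc, the other netrin receptor in the set, was at 0 in all libraries. Ntn1, the founding netrin, was at 1.08 and 1.40 FPKM against 1.83 and 1.60 FPKM, and its change of 0.28 ± 0.12 (SE) was not called (limma, adjusted p = 0.109). Ntn5, a netrin-related gene (chromosome 7, 45684022 to 45694556), was at 2.34 and 1.88 FPKM against 0.454 and 0.431 FPKM, a change of -1.10 ± 0.12 (SE; limma, adjusted p = 0.00185). Exons of Ntn5 share 519 bases with Sec1 on the opposite strand, and Sec1 was at 6.07 and 5.78 FPKM against 2.28 and 2.28 FPKM. The library kit was stranded per the labels, but whether the counting used strand was not given in the sources used here. Without strand, reads of Ntn5 and Sec1 within these 519 bases cannot be told apart. The coding transcripts of Ntn5 are 1491 to 1758 bases long. Plxna1, Efna3, Efna4, Sema4c and Ephb4 likewise share 33 to 970 exonic bases with genes on the opposite strand. Depth was a further limit, since the Ntn5 values corresponded to only about 56, 34, 7 and 8 fragments. The summed netrin level, 3.71 and 3.55 FPKM against 2.70 and 2.54 FPKM, therefore combined a lower Ntn5 with a Ntn1 that was not called.

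**Figure D3:**
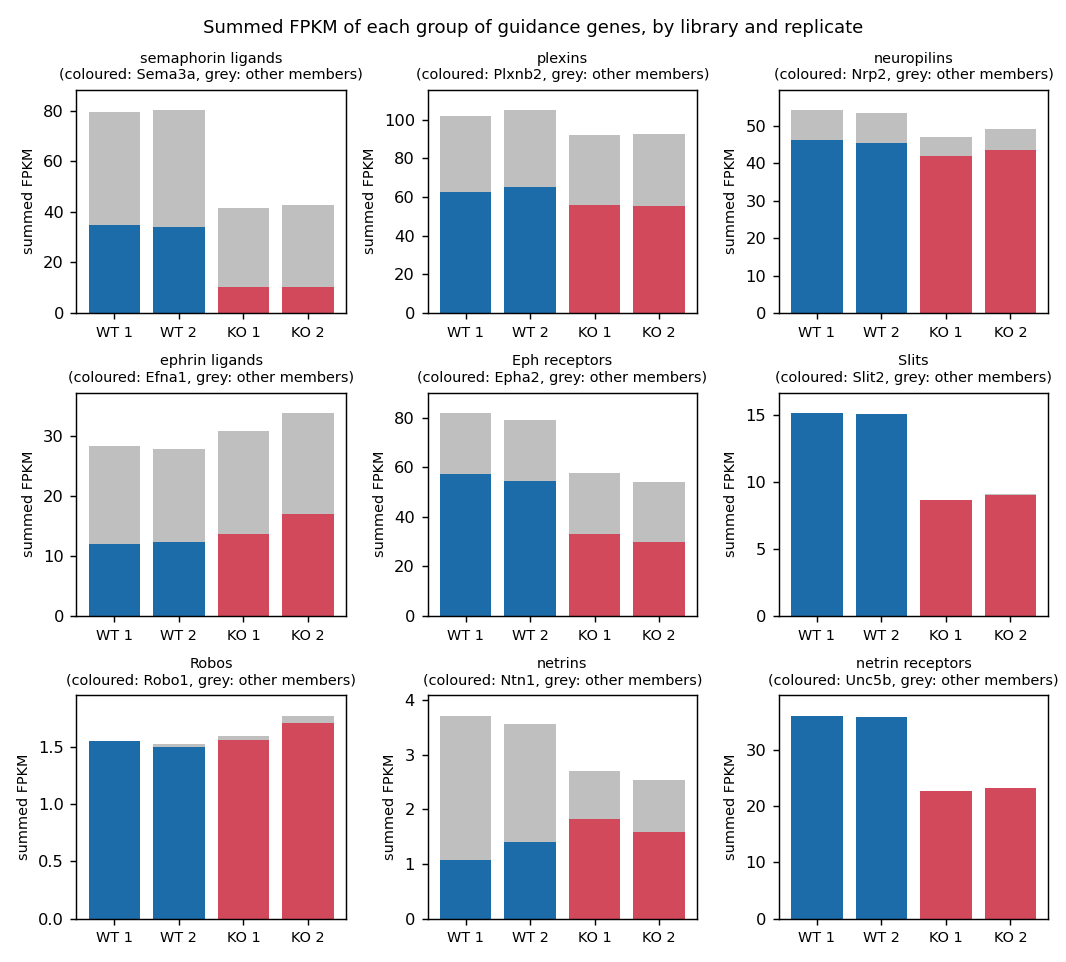
Summed FPKM of each group of guidance genes in each library (WT 1, WT 2, KO 1, KO 2), with the highest member coloured (blue WT, red KO) and all other members grey; every axis starts at 0. The grey part of the Eph panel is level at 24.1 to 24.8 FPKM, and that of the semaphorin panel falls from 44.9 and 46.5 to 31.4 and 32.7 FPKM.

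Ratios taken within 1 library are not changed by a scaling that multiplies all its values by 1 factor. Semaphorin FPKM per plexin FPKM was 0.784 and 0.764 in the WT-labelled libraries and 0.453 and 0.464 in the KO-labelled ones. Ephrin FPKM per Eph receptor FPKM was 0.346 and 0.353 against 0.535 and 0.628, the opposite direction. The differences of these summed levels lay mostly in Efna1 (73.4%) and Epha2 (98.3%). For single pairs, Sema3a per Nrp1 was 4.33 and 4.14 against 1.95 and 1.87, Efna1 per Epha2 was 0.210 and 0.229 against 0.411 and 0.569, and Ntn1 per Unc5b was 0.0301 and 0.0391 against 0.0803 and 0.0689. The groups did not overlap in these 5 ratios, nor for 38.2% (KO below WT) and 39.4% (KO above) of all genes tested. They did overlap for Efnb2 per Ephb4, at 0.00536 and 0.00889 against 0.00468 and 0.0138, where Efnb2 rested on at most about 14 fragments a library. The ratios were built from genes whose differences were already described, and with 2 libraries against 2 no exact two-sided permutation test can give a p below 0.333, so no test of a difference between families was made.

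**Figure D4:**
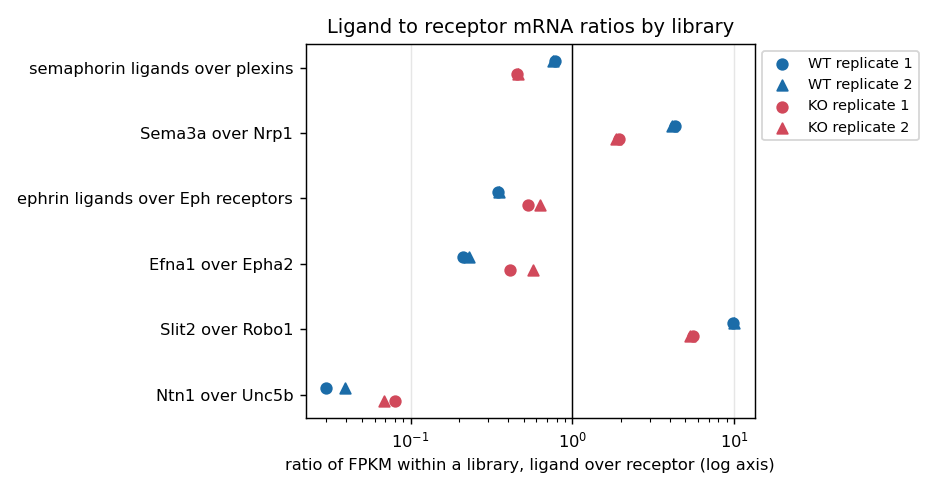
Ratio of ligand to receptor FPKM within each library on a log axis (blue WT, red KO, circle replicate 1, triangle replicate 2), with a line at a ratio of 1. Semaphorin and Slit ratios are lower, and ephrin ratios and Ntn1 over Unc5b higher, in the KO-labelled libraries, and only Sema3a over Nrp1 and Slit2 over Robo1 exceed 1.

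Among the 32 members below the filter but not at 0 throughout, 9 reached 0.5 FPKM in at least 1 library. Their adjusted p-values come from the limma fit without the filter, whose log2(FPKM + 1) scale understates such low genes and in which 15.1% of 16191 genes were called lower and 15.9% higher. Epha7, Sema3b and Sema4d reached 0.5 FPKM only in WT-labelled libraries and Ephb2 only in KO-labelled ones, so these 4 were kept through the group where they are high and their differences are a description. Epha7, an Eph receptor of the A type, was at 1.21 and 0.908 FPKM against 0.348 and 0.415 FPKM (-0.57 ± 0.095, SE; adjusted p = 0.016). Sema3d was at 1.05 and 1.28 FPKM against 0.569 and 0.416 FPKM (adjusted p = 0.0182), and Sema4a, which also acts on immune cells, at 0.94 and 1.05 FPKM against 0.445 and 0.519 FPKM (adjusted p = 0.0145). Efnb3 was at 0.974 and 0.988 FPKM against 0.517 and 0.582 FPKM (adjusted p = 0.0188). Sema3c reached 1.15 and 0.912 FPKM against 0.614 and 0.350 FPKM (adjusted p = 0.05, just under the threshold). These 5 members were below their WT level in the KO-labelled libraries. Ephb2 was the exception, at 0.182 and 0.0731 FPKM against 0.586 and 0.603 FPKM (0.50 ± 0.065, SE; adjusted p = 0.00883). Sema3b, Sema4d and Plxnb1 were not called, and Plxnb1 was level at 0.636 to 0.690 FPKM. The other 23 of the 32 stayed below 0.5 FPKM in every library.

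Some partners of abundant members were among these low genes, and they are named here after their values were seen. Efnb2, the ligand of EphB4, was at 0.0950 and 0.165 FPKM against 0.0945 and 0.277 FPKM. Plxnc1, a receptor of Sema7a, did not exceed 0.0896 FPKM, and Plxnb3, a receptor of Sema5a, did not exceed 0.0167 FPKM. Robo2, Robo3 and Robo4 did not exceed 0.0240 FPKM.

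The wider pathway was described with a list of 86 co-receptors, other ligands, proteases and intracellular effectors, of which 59 were tested. Calls went up for 23 and down for 14 in the KO-labelled libraries, with a median log2 change of 0.09. These are 39.0% and 23.7% of the tested list, beside 24.4% and 23.3% of all genes tested. Gpc1, a heparan sulfate proteoglycan that binds Slit proteins, was at 151 and 153 FPKM against 38.8 and 41.8 FPKM (-1.89 ± 0.044 in log2, SE; limma, adjusted p = 3.78e-05). The neuropilin ligands differed in direction. Vegfc, which binds Nrp2, was at 31.1 and 31.4 FPKM against 8.25 and 8.27 FPKM (-1.80 in log2; limma, adjusted p = 3.78e-05), whereas Vegfa, which binds Nrp1, rose from 18.5 and 17.2 FPKM to 31.4 and 30.6 FPKM, and Vegfb rose by 0.30 (limma, adjusted p = 0.00811). Neo1, neogenin, the other netrin receptor expressed here, was at 26.8 and 26.2 FPKM against 21.2 and 19.6 FPKM (-0.36 ± 0.052, SE; limma, adjusted p = 0.00432). Its ligand Rgmb was at 9.18 and 8.57 FPKM against 4.37 and 2.92 FPKM, a log2 change of -1.10. Flrt2, which binds UNC5 receptors, was at 1.74 and 1.92 FPKM against 0.621 and 0.699 FPKM. Its change of -0.77 is understated by the added 1 FPKM, since the ratio of WT to KO means was 2.77, against 2.43 for Rgmb. Met, a receptor kinase that can associate with B-type plexins, fell by 0.16 (limma, adjusted p = 0.0473).

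Effectors inside the cell included members of both directions. Dpysl2, or CRMP2, which relays the Sema3A signal to microtubules, rose by 0.68 ± 0.076 (SE; limma, adjusted p = 0.00199), from 7.55 and 7.31 FPKM to 13.3 and 11.7 FPKM. Ssh1, a phosphatase that activates cofilin, rose by 0.76 (limma, adjusted p = 0.0043). Rap1gap, which switches off the GTPase Rap1, changed by -0.74 (limma, adjusted p = 0.00383). With any 1 library left out, fewer genes of the list were called higher, and so were fewer of all genes tested.

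Markers of other cell types that express guidance genes were low. Of 8 endothelial markers, 0 reached a mean of 1 FPKM, their summed level was 0.459 to 0.996 FPKM, and Kdr, Tie1 and Cldn5 were at 0 in all libraries. Of 10 leukocyte markers in the tables, Cd14 alone reached it, and Cd3e, Itgam, Adgre1, Itgax and Tyrobp were at 0. Of 10 neuronal and glial markers, Tubb3 and Map2 reached it, with a summed level of 32.0 and 30.8 FPKM in the WT-labelled libraries and 41.3 and 42.8 FPKM in the KO-labelled ones, and Snap25, Gfap and Sox10 were at 0. The higher sum came from Tubb3 (24.9 and 22.6 against 35.5 and 37.7 FPKM), whereas Map2 (5.58 and 5.89 against 5.25 and 4.65 FPKM), Stmn2 (1.11 and 1.65 against 0.0573 and 0.103 FPKM) and Syt1 were lower. The summed mesenchymal markers were at 2892 and 2729 FPKM against 1907 and 1899 FPKM, lower in the same libraries as the semaphorins. Vim, S100a4 and Fn1 made up most of that sum, while Col1a1 (0.275 and 0.246 against 2.14 and 1.95 FPKM), Zeb1 (1.32 and 1.17 against 2.24 and 2.24 FPKM) and Cdh2 (4.78 and 4.55 against 6.22 and 5.88 FPKM) were higher under the KO label. The part of these markers in the differences of the members was not tested.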

How the data were processed

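The authors deposited FPKM values, 1 per gene symbol and library, and the whole table of 24346 symbols in 4 libraries was used as deposited. The build mm10 is named in the submitters' processing notes, as are Cufflinks 2.2.1, TopHat2 2.0.13 with Bowtie2 2.2.3, and SAMtools 0.1.19; for settings, annotation and strand handling, nothing is given in the sources used here. Per the labels' protocols, the library kit selected mRNA and was stranded. KPC cells, also named by the series, were not analysed here. The values carry no read counts, and Cufflinks sums over isoforms, so no count test was used.

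KO libraries were compared with WT libraries in limma 3.58.1 (R 4.3.3): log2(FPKM + 1) of genes averaging 1 FPKM or more, moderated variances with a trend on mean level, no block, two-sided, adjusted by Benjamini-Hochberg over all 10827 genes, called under 0.05. The fit was tested on simulated data. Errors of changes are SE. Depth was estimated from steps between low values (at most 0.1 FPKM): 90.8% to 91.9% of such ratios came within 1% of a quotient of integers no larger than 6. Absolute depth came from transcript lengths and is approximate: 250 of 403 genes with 1 transcript lay within 3% of the fitted line. Fragment numbers for members assume their longest coding transcript in GENCODE M21 (GRCm38, the assembly that mm10 denotes), which also gave gene positions.

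Promoter windows from RefSeq (GRCm38.p6) were read for 57 of the 67 members, at the start nearest to GENCODE's principal transcript. Members and lists were chosen with earlier results of these data known. Values of every library were given for called members with an absolute log2 change of at least 0.5 and for the highest member of each family. From the pathway list, the 8 called genes with the largest change and direct partners of members were named. Alternatives covered pseudocounts of 0.1 and 0.5 FPKM, the filter, 3 scalings, the moderation of variances, leaving out each library in turn, and a replicate block. Python 3.11.15 with pandas 2.3.3 and matplotlib 3.10.9 was used for the rest.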

Additional observations from a re-analysis of the deposited data

How the results depend on the processing

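Of 17 called members, 9 were called in all their alternatives: Sema3a, Sema5a, Epha2, Ephb6, Nrp1, Plxna2, Slit2, Unc5b and Ntn5, the last, Ephb6 and Plxna2 not being tested at a filter of 5 FPKM. The other 8 lost their call in at least 1. The number lower was 10 to 19 over all alternatives against 15 as reported. The number higher went from 2 to 1 with libraries scaled to 1 common FPKM total, to 1 with median-ratio scaling and to 1 with the replicate block, and was 0 to 2 with 1 library left out. It was 3 with quantile normalization, which added Plxna1, and with robust moderation of variances, which added Efna1. Plxna1 was also called higher with a filter of 5 FPKM, and Efnb1 without the trend of variances. The pathway list gave 15 to 18 higher (23 as reported) and 10 to 11 lower (14 as reported) with 1 library left out. The log2 change of Efna4 turned to -0.0083 with libraries scaled to 1 common FPKM total and lay between -0.16 and 0.26 with 1 library left out. The cause of these shifts was not tested. Some alternatives use fewer libraries or genes.

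The groups share replicate numbers, but no label says that a number marks a shared culture or day. The difference between replicates 1 and 2 of WT correlated with that of KO at 0.138 over 10827 genes. With the replicate block, 13 members were lower and 1 higher, since Sema3f (limma, adjusted p = 0.0571), Sema6b (0.05, just above the threshold) and Ephb4 were no longer called. Depth limits the members below 1 FPKM most, and 2 libraries a group limit every comparison.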
